A study of Mus musculus with 9 samples.

Results

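Chemokines and their receptors were measured in mouse ear skin after forced expression of the cytokine IL-23, with and without the myeloid receptor MDL-1. The set holds every protein-coding gene of the deposited count tables whose mouse symbol is Ccl, Cxcl, Ccr, Cxcr, Xcl, Xcr, Cx3cl, Cx3cr or Ackr followed by a number and that had at least 10 counts summed over the 9 libraries. Of 54838 genes in the tables, 60 protein-coding genes placed on chromosomes carried such a name and 47 reached 10 counts, 29 ligands and 18 receptors. Cxcr5 stood just inside that minimum with 10 counts, and Xcl1, Ccl11, Ccl1 and Ccr10 just outside it with 5 counts each. The other 9 genes below it were Cxcr3 and Ccr3 with 4 counts each, Ccl12 with 2, Cxcl15 with 1, and Ccl21b (its chromosome 4 row), Ccl26, Cxcl17, Ccr8 and Ccr1l1 with 0. Another 4 rows on unplaced scaffolds carried such a name and 10 or more counts, and they were left out of the set. They were named Ccl27 (1645 and 1584 counts), Ccl21b (59) and Ccl19 (12).

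The 3 groups of 3 libraries that were compared all came from ears of C57BL/6 mice aged 10 weeks. Mdl-1-/- mice received IL-23 minicircle DNA, wild-type (WT) mice received the same IL-23 DNA, and WT mice received minicircle DNA for green fluorescent protein (GFP), each as 15 µg through the tail vein under hydrodynamic pressure. A minicircle is a small DNA circle stripped of its bacterial backbone. After this route the liver is the organ that mainly takes up the DNA, so the encoded cytokine reaches the ear through the blood. Mdl-1-/- mice with GFP DNA were not analysed here, so a difference between genotypes that precedes IL-23 and one that depends on it cannot be told apart. RNA was read by 3' tag sequencing, in which each transcript is counted near its 3' end. Whether each library stems from its own animal is not stated, so the p-values speak of library spread, which may be technical.

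Chemokines are small secreted proteins that guide leukocytes along concentration gradients through G protein-coupled receptors. CXC ligands with the ELR tripeptide attract neutrophils through CXCR2, interferon-inducible CXC ligands attract activated T cells through CXCR3, and many CC ligands attract monocytes, eosinophils, dendritic cells and lymphocytes. A homeostatic group, such as CCL27 and CXCL14 of keratinocytes and CCL21 of lymphatic vessels, is made in resting skin. Atypical receptors bind chemokines and remove or present them without classical G protein signalling. In psoriasis and its IL-23 mouse models, epidermal chemokines that recruit neutrophils and CCR6-bearing T cells are part of the known picture.

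Library totals lay between 3776188 and 5605713 counts, and 13807 genes passed the filter on low counts and were tested. A floor of 3 counts, the limit that a count of 0 allows, corresponded to 0.464 to 0.992 CPM, counts scaled to a common library size, across libraries, and this covers counting error only. The 47 genes took 0.0665%, 0.0817% and 0.0799% of all counts in Mdl-1-/- IL-23 libraries, 0.0548%, 0.0692% and 0.0681% in WT IL-23 libraries and 0.0547%, 0.0550% and 0.0575% in WT GFP libraries. Of the 47, 34 passed the filter and 13, with totals of 10 to 92 counts, did not. Clec5a, the gene of MDL-1, had 10, 13 and 5 counts in Mdl-1-/- IL-23 libraries, 17, 21 and 11 in WT IL-23 libraries and 2, 7 and 10 in WT GFP libraries; reads at the 3' end may lie outside the deleted part, so these counts do not check the genotype. Keratinocyte markers, which define this tissue, were abundant, with all 9 listed genes tested and summed levels of 24391 to 28457 CPM in Mdl-1-/- IL-23, 22392 to 27141 CPM in WT IL-23 and 11424 to 14621 CPM in WT GFP ears.

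Some libraries stood apart for single chemokines. Mdl-1-/- IL-23 library 1 was low for Cxcl9 and Cxcl10, WT IL-23 library 1 was low for Cxcl9, Ccl8 and Cxcr6, WT GFP library 1 was high for Cxcl1, Ccl20 and Ccl2, and WT GFP library 3 was high for Cxcl2. Levels below are CPM after trimmed-mean (TMM) scaling, listed in the order of libraries 1, 2 and 3. A gene is said to have risen or fallen where the adjusted p of edgeR's quasi-likelihood test, corrected over all 13807 genes, was under 0.05. Counts for role groups and marker lists below stand against the shares of all genes. With IL-23 in WT, 22.9% rose and 21.7% fell, and under IL-23 7.58% were higher and 10.1% lower in Mdl-1-/- than in WT.

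Many of these genes lie in tandem clusters. In GRCm38, chromosome 5 holds Cxcl5, Cxcl3, Cxcl1 and Cxcl2 between positions 90759360 and 90905938, and Cxcl9 and Cxcl10 between 92321347 and 92348889. Chromosome 11 holds Ccl2, Ccl7 and Ccl8 between 82035571 and 82116799, and Ccl5, Ccl9, Ccl6, Ccl3 and Ccl4 between 83525778 and 83664683. On chromosome 9 the receptor genes Ccr9, Cxcr6, Xcr1, Ccr1 and Ccr2 lie between 123678439 and 124113557.

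Promoters of 4 clustered CXC ligand genes are shown because these genes are known targets of NF-kB and interferon signalling. They are RefSeq sequences of GRCm38.p6 upstream of the annotated start, 5′ to 3′ on the gene's strand: 150 bases for Cxcl1 (chr5:90891095-90891244, plus strand), Cxcl2 (chr5:90903749-90903898, plus) and Cxcl3 (chr5:90785951-90786100, plus), and 250 bases for Cxcl10 (chr5:92348890-92349139, minus). Capitals mark matches, on either strand, to the NF-kB motif GGGNNNTTCC or the interferon response motif TTTCNNTTTC.
Cxcl1: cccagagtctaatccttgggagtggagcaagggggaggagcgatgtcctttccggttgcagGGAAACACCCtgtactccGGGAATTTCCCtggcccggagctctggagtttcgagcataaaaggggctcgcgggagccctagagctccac
Cxcl2: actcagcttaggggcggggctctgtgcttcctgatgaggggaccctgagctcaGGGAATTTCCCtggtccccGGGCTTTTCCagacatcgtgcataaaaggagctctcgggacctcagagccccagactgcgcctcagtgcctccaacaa
Cxcl3: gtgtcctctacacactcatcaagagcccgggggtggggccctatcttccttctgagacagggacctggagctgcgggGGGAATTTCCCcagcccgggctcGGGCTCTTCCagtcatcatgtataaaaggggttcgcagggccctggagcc
Cxcl10: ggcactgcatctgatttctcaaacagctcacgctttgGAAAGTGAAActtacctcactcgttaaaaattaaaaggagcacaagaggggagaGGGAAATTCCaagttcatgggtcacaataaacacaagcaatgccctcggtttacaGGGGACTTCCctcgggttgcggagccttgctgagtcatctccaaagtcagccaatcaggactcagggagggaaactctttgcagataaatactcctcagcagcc
Cxcl1, Cxcl2 and Cxcl3 share the run GGGAATTTCCC, in which matches on the 2 strands overlap. Of the 47 genes, 37 had a 300-base RefSeq window, from 250 bases before the start to 50 after it. The NF-kB letters occurred in 6 of these 37 windows (16.2%: Cxcl1, Cxcl2, Cxcl3, Cxcl10, Ccl9 and Ccl20) and in 5.56% of all 32851 windows. The interferon motif occurred in 3 (8.11%: Cxcl10, Cxcl14 and Ccl19) and in 3.44% of all windows, and the GAS motif TTCNNNGAA in 3 (8.11%: Ccl17, Ccr6 and Cxcl14) and in 8.30%. All printed promoters hold matches, and among them only that of Cxcl10 holds the interferon motif. The window of Cxcl9, the neighbour of Cxcl10, is not printed and held 0 matches to the NF-kB, interferon and GAS motifs. These matches describe letters in the window and no binding was measured.

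**Figure D1:**
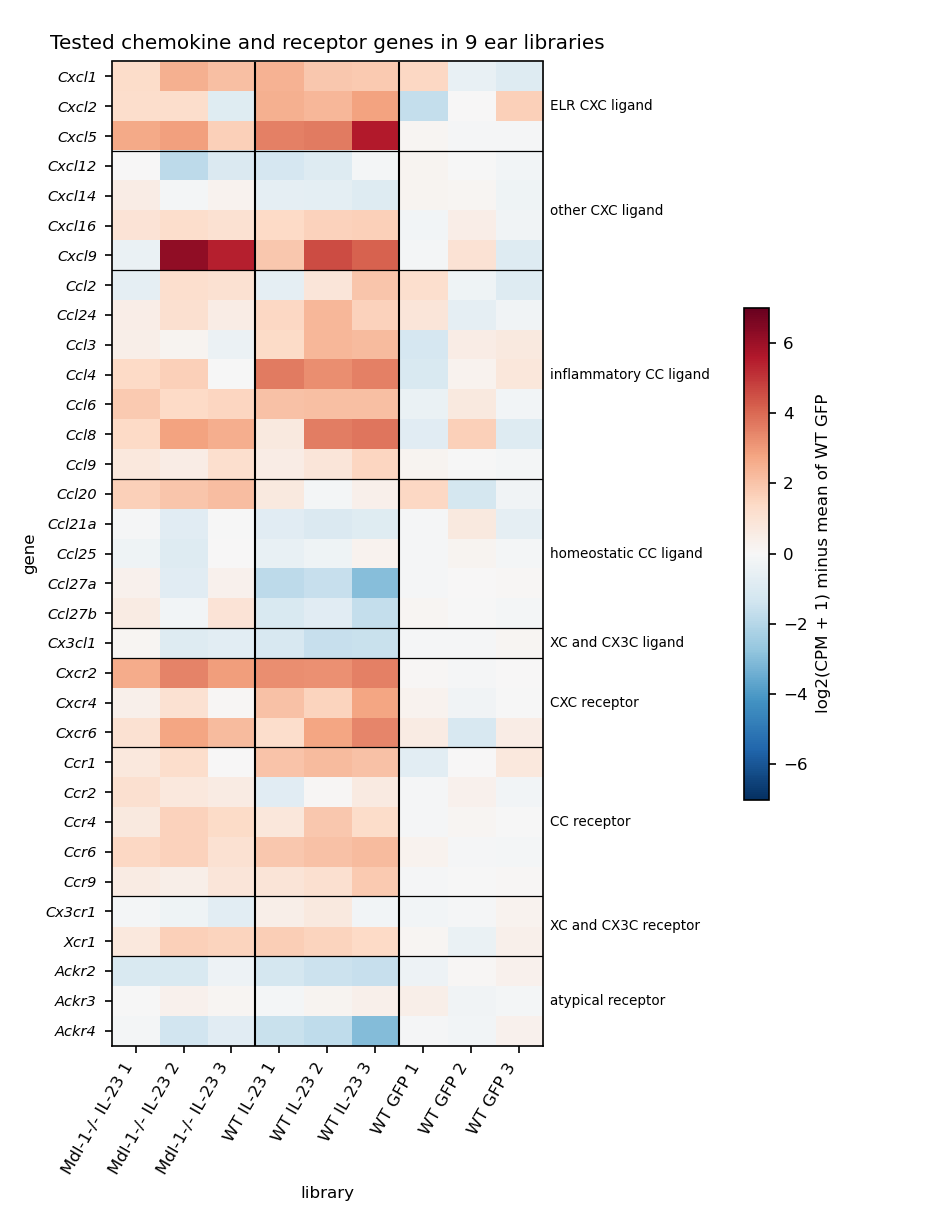
Level of 33 tested genes in each of the 9 ear libraries, as log2(CPM + 1) minus the mean of the 3 WT GFP libraries (colour, log2 units); rows are genes grouped by role, columns are libraries, and the black vertical lines part the groups. Cxcl5, Ccl4 and Cxcr2 are above the WT GFP mean in all 3 WT IL-23 libraries, Ackr4 and Ccl27a are below it, and Cxcl9 differs widely within the Mdl-1-/- IL-23 group.

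IL-23 DNA in WT ears raised 16 of the 34 tested genes and lowered 7, and 11 did not pass the test. Over all 13807 genes, 22.9% rose and 21.7% fell in the same comparison, against 47.1% and 20.6% of the chemokine and receptor genes. Their median log2 fold change was 1.49, that of all genes -0.04. Of 14 tested receptor genes 9 rose and 2 fell, and of 20 tested ligand genes 7 rose and 5 fell. The 5 fallen ligand genes include Ccl27a and Ccl27b, copies whose rows cannot be taken as separate measurements. Under upper-quartile scaling the median of all genes moved by -0.15 log2 units, and 38.9% of all calls were higher, against 51.3% with TMM; the counts of 16 and 7 stayed as they were.

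Between Mdl-1-/- and WT ears under IL-23, 4 tested genes were higher and 5 lower in Mdl-1-/-, and 25 did not pass the test. Over all genes, 7.58% were higher and 10.1% lower, against 11.8% and 14.7% of the chemokine and receptor genes. In each direction the 2 shares were within 5 percentage points. Their median log2 difference was -0.24, that of all genes 0.00. The 4 higher genes were all ligands (Ccl27a, Ccl27b, Cxcl14 and Cx3cl1), and the 5 lower ones were 3 ligands (Ccl3, Ccl4 and Cxcl5) and 2 receptors (Ccr1 and Cxcr4). Of all genes called in this comparison, 42.9% were higher with TMM and 53.2% with upper-quartile scaling; the counts of 4 and 5 stayed as they were.

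Set against WT GFP ears, Mdl-1-/- IL-23 ears were higher for 8 of the 34 genes and lower for 0. Over all genes, 10.2% were higher and 6.93% lower. At an unadjusted p under 0.05 in edgeR's test 1 of the 34 (Ackr2) was lower, and DESeq2 and limma voom each called 0 lower. The 8 higher genes included Cxcl5, Ccl6, Cxcl16, Cxcr2, Ccr4, Ccr6 and Xcr1, and the median log2 difference over the 34 was 0.85, that of all genes -0.02. With upper-quartile scaling 43.7% of all calls were higher, against 59.4% with TMM, and the 8 and 0 stayed as they were. This comparison shares its libraries with the other 2, so its values are set beside theirs and no overlap is drawn.

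The ELR CXC ligands, which attract neutrophils, differed among themselves. Cxcl5, made by epithelial cells, had 5.59, 6.63 and 2.4 CPM in Mdl-1-/- IL-23 ears, 11.0, 12.3 and 48.6 CPM in WT IL-23 ears and 0.174, 0 and 0 CPM in WT GFP ears. The 3 groups did not overlap, and WT IL-23 library 3 was far above the other libraries. WT IL-23 ears held 251 Cxcl5 counts in all and WT GFP ears 1, a ratio of pooled CPM of 371 with an exact 95% interval for counting error of 65.9 to 14700 (edgeR adjusted p = 0.000558). Mdl-1-/- IL-23 ears held 64 counts, a ratio to WT GFP of 86.8 with an interval of 15 to 3482 (edgeR adjusted p = 0.0218, lost in 5 of 18 alternative settings with values up to 0.0979).

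Between genotypes under IL-23, Cxcl5 was 4.73-fold lower in Mdl-1-/- ears (log2 difference -2.24 ± 0.64 SE, edgeR adjusted p = 0.0441). That call was lost in 9 of 18 alternative settings, with adjusted p up to 0.131 when the 2 groups were fitted alone, and without WT IL-23 library 3 the log2 difference was -1.23 with adjusted p = 0.0631.

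Cxcl2, an early neutrophil attractant of myeloid cells, had 42.0, 41.6 and 9.34 CPM in Mdl-1-/- IL-23 ears, 103, 92.2 and 130 CPM in WT IL-23 ears and 4.70, 17.4 and 57.2 CPM in WT GFP ears. Every WT IL-23 library lay above every library of the other 2 groups. Neither difference passed the test: the log2 difference was -1.80 ± 0.88 between genotypes (edgeR adjusted p = 0.213) and 2.01 ± 0.88 between IL-23 and GFP in WT (edgeR adjusted p = 0.110). Without WT GFP library 3, the highest of its group, the IL-23 effect in WT was 3.29 with adjusted p = 0.0265.

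Cxcl1, a related attractant made by keratinocytes and stromal cells, had 5.81, 14.6 and 10.8 CPM in Mdl-1-/- IL-23 ears, 13.8, 9.41 and 8.93 CPM in WT IL-23 ears and 6.61, 0.918 and 0.464 CPM in WT GFP ears. The genotypes overlapped under IL-23 (log2 difference -0.05 ± 0.66, edgeR adjusted p = 0.972). WT IL-23 lay above WT GFP in every library but missed the threshold (2.02 ± 0.75 log2, edgeR adjusted p = 0.0553), and without WT GFP library 1 the difference was 3.95 with adjusted p = 5.95e-05. Mdl-1-/- IL-23 against WT GFP gave 1.97 ± 0.74 (edgeR adjusted p = 0.107), and without that library 3.92 with adjusted p = 0.000210. Cxcl3, of the same cluster, was too low to test, with 5, 2 and 2 counts in Mdl-1-/- IL-23, 5, 4 and 4 in WT IL-23 and 0, 0 and 4 in WT GFP libraries.

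Their receptor gene Cxcr2 followed another pattern. It had 22.1, 41.2 and 27.8 CPM in Mdl-1-/- IL-23 ears, 35.1, 33.7 and 42.0 CPM in WT IL-23 ears and 2.96, 2.57 and 2.78 CPM in WT GFP ears. Both IL-23 groups overlapped each other and lay clear of WT GFP. Cxcr2 was 10.9-fold higher in Mdl-1-/- IL-23 than in WT GFP ears (edgeR adjusted p = 1.36e-06) and 13.1-fold higher in WT IL-23 than in WT GFP ears (edgeR adjusted p = 1.95e-07), while the genotypes under IL-23 differed by -0.28 ± 0.21 log2 units (edgeR adjusted p = 0.381). Cxcr1, another ELR receptor gene beside it on chromosome 1, had 6 counts in Mdl-1-/- IL-23, 10 in WT IL-23 and 2 in WT GFP libraries.

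Markers of neutrophils were read beside these genes. Of 12 listed, 7 were tested; 6 rose with IL-23 in WT and 4 (Csf3r, Clec4d, Stfa2l1 and Retnlg) were lower in Mdl-1-/- than in WT under IL-23. The summed level of the 12 was 1664 to 5406 CPM in Mdl-1-/- IL-23, 6984 to 14392 CPM in WT IL-23 and 152 to 199 CPM in WT GFP ears. Most of this sum was S100a9, which was not among the 4 called lower, so the sum mainly gives the level of that gene. Which cells of the ear made S100a9 was not tested, so the sum is not a measure of neutrophils. Of the 12 markers, 0 were without counts in all libraries. Csf3r, the G-CSF receptor gene of neutrophils, had 1.79, 2.52 and 0.479 CPM in Mdl-1-/- IL-23, 6.19, 4.82 and 6.94 CPM in WT IL-23 and 0.348, 1.84 and 1.08 CPM in WT GFP ears. Csf3r was thus 3.65-fold lower in Mdl-1-/- ears under IL-23 (edgeR adjusted p = 0.0213), where Cxcr2 did not pass the test; the difference between these 2 genes was not tested. In whole ear tissue, fewer cells of a type and less RNA per cell cannot be told apart, and the part of neutrophil number in any chemokine result was not tested.

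**Figure D2:**
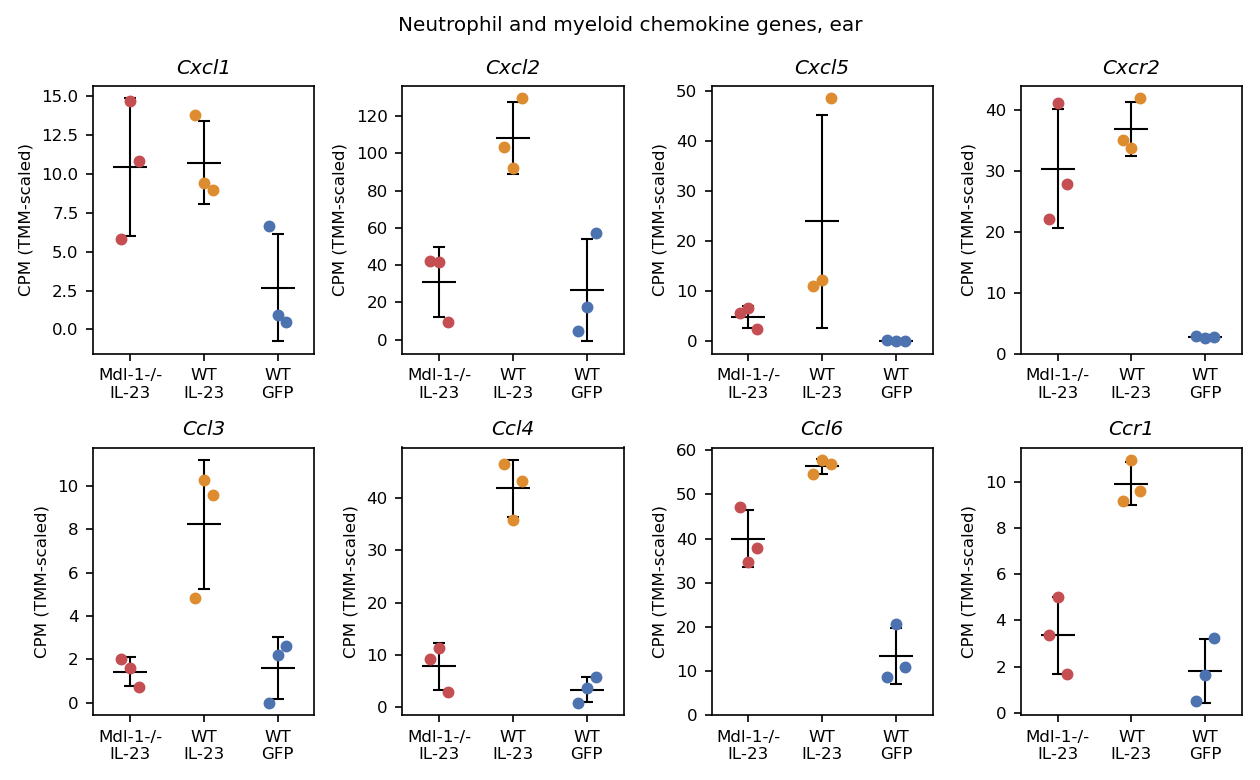
Levels of 8 neutrophil and myeloid chemokine genes in ear, in CPM, with 1 point a library, the group mean as a horizontal line and the SD as error bars (n = 3 a group); groups run Mdl-1-/- IL-23, WT IL-23, WT GFP. Every WT IL-23 library is above every other library for Ccl4 and Ccr1, whereas Cxcr2 is at 22.1 to 42.0 CPM in both IL-23 groups.

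Inflammatory CC ligands gave 5 increases among 7 tested genes with IL-23 in WT ears, and 2 of the 7 were lower in Mdl-1-/- than in WT under IL-23. Ccl4 (MIP-1 beta), an attractant of monocytes and lymphocytes, had 9.17, 11.4 and 2.88 CPM in Mdl-1-/- IL-23 ears, 46.5, 35.9 and 43.3 CPM in WT IL-23 ears and 0.870, 3.67 and 5.72 CPM in WT GFP ears. All WT IL-23 libraries were above all others, and the other 2 groups overlapped. Ccl4 was 5.31-fold lower in Mdl-1-/- than in WT ears under IL-23 (log2 -2.41 ± 0.48, edgeR adjusted p = 0.0108) and 12-fold higher in WT IL-23 than in WT GFP ears (edgeR adjusted p = 0.000487). Both calls held in all 18 alternative settings.

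Ccl3 (MIP-1 alpha), its neighbour and a ligand of CCR1, had 2.01, 1.60 and 0.719 CPM in Mdl-1-/- IL-23 ears, 4.81, 10.3 and 9.59 CPM in WT IL-23 ears and 0, 2.20 and 2.63 CPM in WT GFP ears. WT IL-23 again lay above both other groups. It was 5.54-fold lower in Mdl-1-/- than in WT under IL-23 (log2 -2.47 ± 0.67, edgeR adjusted p = 0.0260) and 4.96-fold higher in WT IL-23 than in WT GFP (edgeR adjusted p = 0.0103). The genotype call was lost with limma voom (adjusted p = 0.0517) and on leaving out any of 5 libraries, Mdl-1-/- IL-23 libraries 1, 2 and 3 and WT IL-23 libraries 2 and 3, at adjusted p of 0.0612 to 0.0959.

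Ccl6, a macrophage-lineage ligand of CCR1 found in rodents, had 47.2, 34.8 and 37.9 CPM in Mdl-1-/- IL-23 ears, 54.5, 57.8 and 56.9 CPM in WT IL-23 ears and 8.70, 20.6 and 11.0 CPM in WT GFP ears. The 3 groups did not overlap. It was 2.99-fold higher in Mdl-1-/- IL-23 than in WT GFP (edgeR adjusted p = 0.000592) and 4.22-fold higher in WT IL-23 than in WT GFP (edgeR adjusted p = 1.47e-05), and the genotypes under IL-23 differed by -0.50 ± 0.23 log2 units without passing the test (edgeR adjusted p = 0.147).

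Ccl24 (eotaxin-2), an eosinophil attractant, averaged 1.53 ± 0.65 CPM in Mdl-1-/- IL-23, 4.54 ± 1.95 in WT IL-23 and 0.683 ± 0.928 in WT GFP ears (SD, n = 3 each), and was 6.55-fold higher in WT IL-23 than in WT GFP (edgeR adjusted p = 0.00464). WT GFP library 1 held 10 of the 12 WT GFP counts; without it the IL-23 effect in WT was 4.58 log2 units (adjusted p = 0.000552) against 2.71 with it, and Mdl-1-/- IL-23 against WT GFP was 3.03 (adjusted p = 0.0439) against 1.14 (edgeR adjusted p = 0.342). Ccl9, another CCR1 ligand of rodents, averaged 3.94 ± 1.19 CPM in Mdl-1-/- IL-23, 4.62 ± 2.07 in WT IL-23 and 1.76 ± 0.29 in WT GFP ears and was 2.53-fold higher in WT IL-23 than in WT GFP (edgeR adjusted p = 0.0165). That call was lost without WT IL-23 library 3 (adjusted p = 0.0980) or WT GFP library 3 (adjusted p = 0.0588).

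Ccl8 (MCP-2) and Ccl2 (MCP-1), monocyte attractants, did not pass the test in any of the 3 comparisons. Ccl8 had 15, 41.6 and 34.3 CPM in Mdl-1-/- IL-23 ears, 8.71, 73.8 and 81.3 CPM in WT IL-23 ears and 2.61, 18.4 and 2.32 CPM in WT GFP ears. The WT groups overlapped, with a low WT IL-23 library 1 and a high WT GFP library 2; the IL-23 effect in WT was 2.83 ± 1.10 log2 units (edgeR adjusted p = 0.0803), and without WT IL-23 library 1 it was 3.35 with adjusted p = 0.0301 and without WT GFP library 2 it was 4.45 with adjusted p = 0.0369. Ccl2 stayed between 0 and 6.28 CPM in all libraries, and its IL-23 effect in WT was 1.11 ± 1.27 log2 units (edgeR adjusted p = 0.513), or 3.31 without WT GFP library 1 (adjusted p = 0.100). Untested Ccl7 had 24 counts in Mdl-1-/- IL-23, 13 in WT IL-23 and 21 in WT GFP libraries, and Ccl5 had 22 counts in Mdl-1-/- IL-23, 9 in WT IL-23 and 22 in WT GFP libraries.

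The CCR1 and CXCR4 genes were the 2 receptors that were lower in Mdl-1-/- than in WT ears under IL-23. Ccr1, on neutrophils, monocytes and macrophages, had 3.35, 5.03 and 1.68 CPM in Mdl-1-/- IL-23 ears, 9.17, 10.9 and 9.59 CPM in WT IL-23 ears and 0.522, 1.65 and 3.25 CPM in WT GFP ears. Cxcr4, the CXCL12 receptor gene on many leukocytes, had 2.46, 4.80 and 1.92 CPM in Mdl-1-/- IL-23 ears, 10.3, 7.01 and 17.5 CPM in WT IL-23 ears and 2.26, 1.29 and 1.70 CPM in WT GFP ears. For both genes every WT IL-23 library exceeded every other library, and the other 2 groups overlapped.

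Ccr1 was 2.93-fold lower in Mdl-1-/- than in WT under IL-23 (log2 -1.55 ± 0.44, edgeR adjusted p = 0.0249) and 5.32-fold higher in WT IL-23 than in WT GFP (edgeR adjusted p = 0.000589). The genotype call was lost without WT IL-23 library 2 or 3 or Mdl-1-/- IL-23 library 1 or 3, at adjusted p of 0.0626 to 0.0959. Cxcr4 was 3.69-fold lower (log2 -1.88 ± 0.41, edgeR adjusted p = 0.00642) and 6.41-fold higher (edgeR adjusted p = 0.000119) in the same comparisons and kept both calls in all 17 alternatives that tested it.

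Among the interferon-inducible CXC ligands, which attract T cells through CXCR3, Cxcl9 varied widely between libraries of a group and did not pass the test. It had 1.79, 289 and 168 CPM in Mdl-1-/- IL-23 ears, 13.8, 90.4 and 67.5 CPM in WT IL-23 ears and 2.61, 6.98 and 1.08 CPM in WT GFP ears. Mdl-1-/- IL-23 library 1 lay in the WT GFP range while libraries 2 and 3 lay above every other library. The log2 difference was 1.42 ± 1.34 between genotypes under IL-23 (edgeR adjusted p = 0.516), 4.04 ± 1.72 between IL-23 and GFP in WT (edgeR adjusted p = 0.105) and 5.46 ± 1.73 between Mdl-1-/- IL-23 and WT GFP (edgeR adjusted p = 0.0817).

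Without Mdl-1-/- IL-23 library 1 the same 3 values of Cxcl9 were 2.0 (adjusted p = 0.190), 4.04 (adjusted p = 0.0201) and 6.04 (adjusted p = 0.0143). Cxcl10, its neighbour on chromosome 5, had 0, 32 and 41 counts in Mdl-1-/- IL-23, 2, 6 and 8 in WT IL-23 and 3, 0 and 0 in WT GFP libraries, with the same low library. Its pooled CPM were 33.0-fold those of WT GFP in Mdl-1-/- IL-23 ears (exact 95% interval for counting error 10.9 to 164) and 7.88-fold in WT IL-23 ears (2.25 to 42.2). Cxcl11, which the annotation lists as a polymorphic pseudogene and which therefore falls outside the 47, had 0, 34 and 32 counts in Mdl-1-/- IL-23, 1, 27 and 17 in WT IL-23 and 1, 2 and 0 in WT GFP libraries.

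The interferon-response gene Irf1 showed the same libraries apart. Irf1, an interferon-induced transcription factor, had 19.5, 115 and 108 CPM in Mdl-1-/- IL-23 ears, 56.6, 122 and 116 CPM in WT IL-23 ears and 25.6, 14.5 and 11.4 CPM in WT GFP ears. Ifng itself had at most 2 counts in any library, and Cxcr3 had 4 counts in all. What set library 1 of each IL-23 group apart was not tested.

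**Figure D3:**
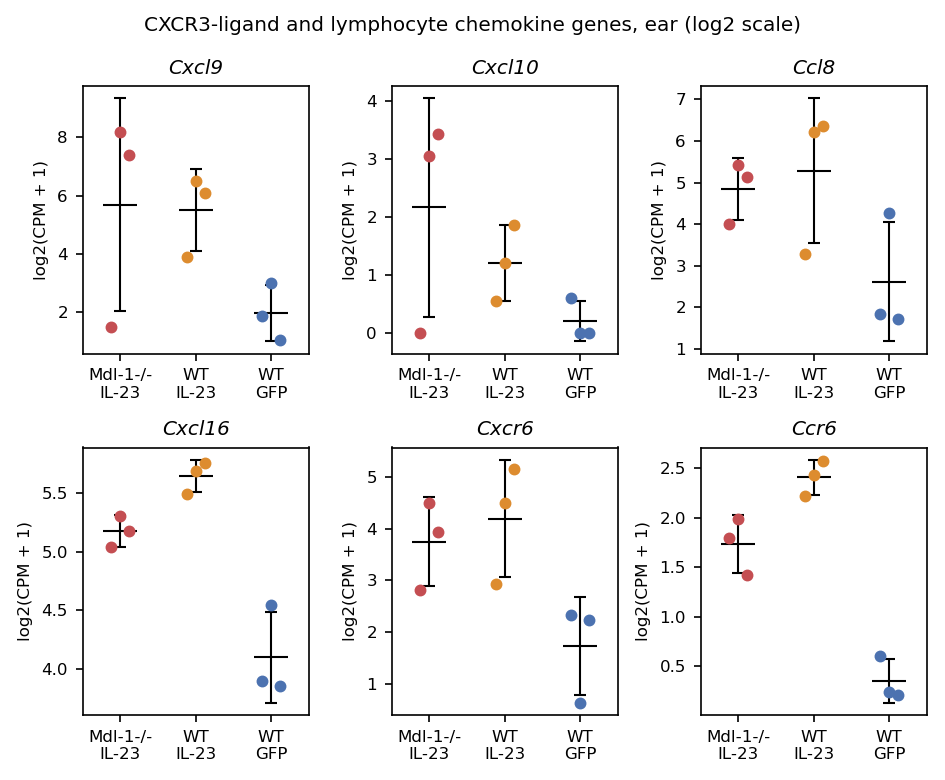
Levels of interferon-inducible and lymphocyte chemokine genes in ear as log2(CPM + 1), 1 point a library, with the group mean as a horizontal line and the SD as error bars (n = 3 a group); groups run Mdl-1-/- IL-23, WT IL-23, WT GFP, and the vertical axes do not start at 0 in every panel. Cxcl9 ranges from 1.79 to 289 CPM within Mdl-1-/- IL-23 ears, while Cxcl16 separates all 3 groups.

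Cxcl16, a membrane-bound ligand of CXCR6, had 32.0, 38.7 and 35.2 CPM in Mdl-1-/- IL-23 ears, 44.0, 50.6 and 53.2 CPM in WT IL-23 ears and 13.9, 22.4 and 13.5 CPM in WT GFP ears. The groups did not overlap; Cxcl16 was 2.13-fold higher in Mdl-1-/- IL-23 than in WT GFP (edgeR adjusted p = 0.00152) and 2.97-fold higher in WT IL-23 than in WT GFP (edgeR adjusted p = 1.80e-05). The genotypes under IL-23 differed by -0.48 ± 0.19 log2 units and missed the threshold (edgeR adjusted p = 0.0906). Its receptor gene Cxcr6, of tissue-homing T cells and innate lymphocytes, had 6.04, 21.5 and 14.4 CPM in Mdl-1-/- IL-23 ears, 6.65, 21.7 and 34.4 CPM in WT IL-23 ears and 4.0, 0.551 and 3.71 CPM in WT GFP ears. Every IL-23 library of either genotype exceeded every WT GFP library, with library 1 lowest in both IL-23 groups. Cxcr6 was 7.25-fold higher in WT IL-23 than in WT GFP (edgeR adjusted p = 0.0243), a call that was lost without a count filter (adjusted p = 0.0774) and on leaving out any of 5 libraries (adjusted p = 0.0558 to 0.0683).

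Cxcl12, the CXCR4 ligand of stromal cells, averaged 11.4 ± 7.75 CPM in Mdl-1-/- IL-23, 11.9 ± 4.91 in WT IL-23 and 19.8 ± 2.83 in WT GFP ears (SD, n = 3 each) and did not pass the test in any comparison. Cxcl13, the B-cell attractant, had 0, 3 and 11 counts in Mdl-1-/- IL-23, 0, 2 and 2 in WT IL-23 and 0 in each WT GFP library. Its pooled CPM in Mdl-1-/- IL-23 ears was at least 6.33-fold higher than a floor of 3 counts over the WT GFP group, with most counts from library 3.

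Receptors of T cells and dendritic cells were among those called higher with IL-23. Ccr6, the CCL20 receptor gene of IL-17-producing T cells and dendritic cells, had 2.46, 2.97 and 1.68 CPM in Mdl-1-/- IL-23 ears, 3.67, 4.38 and 4.96 CPM in WT IL-23 ears and 0.522, 0.184 and 0.155 CPM in WT GFP ears. Ccr4, a skin-homing receptor gene of T cells, had 9.62, 19.0 and 15.8 CPM in Mdl-1-/- IL-23 ears, 10.5, 23.4 and 14.9 CPM in WT IL-23 ears and 5.22, 6.24 and 5.41 CPM in WT GFP ears. All IL-23 libraries lay above all WT GFP libraries for both genes; the genotypes under IL-23 did not overlap for Ccr6 and overlapped for Ccr4.

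Ccr6 was 7.75-fold higher in Mdl-1-/- IL-23 than in WT GFP (edgeR adjusted p = 0.00281) and 14.0-fold higher in WT IL-23 than in WT GFP (edgeR adjusted p = 6.04e-05); between genotypes the log2 difference was -0.85 ± 0.42 (edgeR adjusted p = 0.167). Ccr4 was 2.63-fold higher in Mdl-1-/- IL-23 than in WT GFP (edgeR adjusted p = 0.00639) and 2.90-fold higher in WT IL-23 than in WT GFP (edgeR adjusted p = 0.000997).

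Xcr1, the marker receptor gene of cross-presenting dendritic cells, averaged 2.63 ± 1.13 CPM in Mdl-1-/- IL-23, 3.13 ± 0.51 in WT IL-23 and 0.432 ± 0.395 in WT GFP ears, 5.56-fold higher (edgeR adjusted p = 0.0148) and 6.69-fold higher (edgeR adjusted p = 0.00257) in the 2 IL-23 groups than in WT GFP; the first call was lost without Mdl-1-/- IL-23 library 2 (adjusted p = 0.0663). Ccr9, the CCL25 receptor gene, averaged 10.2 ± 1.8 CPM in Mdl-1-/- IL-23, 17.4 ± 6.5 in WT IL-23 and 6.27 ± 0.37 in WT GFP ears and was 2.73-fold higher in WT IL-23 than in WT GFP (edgeR adjusted p = 0.000505). Exons of Ccr9 overlap Slc6a20a on the other strand, and the strand setting of the counting is not given in the sources used here, so its reads are uncertain.

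Markers of those cells were read beside the receptors. Of 8 tested T and innate lymphoid cell markers 5 rose with IL-23 in WT and 1 (Trbc2) was lower in Mdl-1-/- than in WT under IL-23, with summed levels of 115 to 155 CPM in Mdl-1-/- IL-23, 158 to 177 CPM in WT IL-23 and 62.0 to 100 CPM in WT GFP ears. Of 8 tested dendritic and Langerhans cell markers 5 rose with IL-23 in WT and 1 (Fscn1) was lower in Mdl-1-/- than in WT under IL-23, with 308 to 420 CPM in Mdl-1-/- IL-23, 269 to 405 CPM in WT IL-23 and 83.4 to 135 CPM in WT GFP ears. Neither list of 12 held a marker without counts in all libraries, and their part in the receptor levels was not tested.

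Ccr2, the inflammatory monocyte receptor gene, had 32.0, 24.2 and 22 CPM in Mdl-1-/- IL-23 ears, 8.02, 15.3 and 22.5 CPM in WT IL-23 ears and 13.6, 17.6 and 12.4 CPM in WT GFP ears. Mdl-1-/- IL-23 lay above WT GFP in every library and overlapped WT IL-23 at a single library. It missed the threshold between genotypes under IL-23 (0.80 ± 0.29 log2, edgeR adjusted p = 0.0673) and against WT GFP (0.85 ± 0.28 log2, edgeR adjusted p = 0.0504), and IL-23 against GFP in WT gave 0.05 ± 0.30 (edgeR adjusted p = 0.913). Of 10 tested monocyte and macrophage markers, 2 rose and 1 fell with IL-23 in WT, and 1 (Cd163) was higher in Mdl-1-/- than in WT under IL-23; their summed level was 340 to 388 CPM in Mdl-1-/- IL-23, 297 to 376 CPM in WT IL-23 and 119 to 185 CPM in WT GFP ears. Cx3cr1, the fractalkine receptor gene of monocytes and resident macrophages, averaged 2.14 ± 0.64 CPM in Mdl-1-/- IL-23, 4.23 ± 1.53 in WT IL-23 and 3.14 ± 0.65 in WT GFP ears and did not pass the test in any comparison.

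The 5 tested genes grouped as homeostatic, skin and lymphoid CC ligands were Ccl20, Ccl21a, Ccl25, Ccl27a and Ccl27b. This group includes Ccl20, a ligand of inflamed epidermis, which was not called in any comparison, and leaves out Cxcl14, a CXC ligand. Of the 5, 3 fell with IL-23 in WT (60%, against 21.7% of all genes) and 0 rose. Under IL-23, 2 were higher (40%, against 7.58%) and 0 lower in Mdl-1-/- than in WT. Ccl27a and Ccl27b, whose rows cannot be taken as separate measurements, were the 2 higher genes and were among the 3 that fell. Cxcl14, a keratinocyte chemokine of resting epithelium, had 95.7, 59.7 and 79.1 CPM in Mdl-1-/- IL-23 ears, 43.1, 40.5 and 34.4 CPM in WT IL-23 ears and 74.8, 71.4 and 53.8 CPM in WT GFP ears. Every WT IL-23 library lay below every other library, and the other 2 groups overlapped. Cxcl14 was 1.98-fold higher in Mdl-1-/- than in WT under IL-23 (log2 0.99 ± 0.19, edgeR adjusted p = 0.00344) and 1.69-fold lower in WT IL-23 than in WT GFP (edgeR adjusted p = 0.00391), both in all 18 alternatives.

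Ccl27a, a keratinocyte ligand for the skin-homing receptor CCR10, had 44.1, 20.1 and 44.1 CPM in Mdl-1-/- IL-23 ears, 9.40, 11.2 and 3.64 CPM in WT IL-23 ears and 34.1, 35.8 and 37.6 CPM in WT GFP ears. Its copy Ccl27b had 64.9, 37.7 and 85.1 CPM in Mdl-1-/- IL-23 ears, 20.2, 24.1 and 12.9 CPM in WT IL-23 ears and 46.8, 42.2 and 38.8 CPM in WT GFP ears. For both, WT IL-23 stood below the other 2 groups in every library, and Mdl-1-/- IL-23 overlapped WT GFP. Between genotypes under IL-23, Ccl27a was 4.30-fold (edgeR adjusted p = 0.00340) and Ccl27b 3.23-fold (edgeR adjusted p = 0.00285) higher in Mdl-1-/-; with IL-23 in WT, Ccl27a was 4.27-fold (edgeR adjusted p = 0.000539) and Ccl27b 2.20-fold (edgeR adjusted p = 0.00535) lower than with GFP. These 4 calls held in all 18 alternatives.

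The Ccl27 rows cannot be taken as separate measurements. The mouse genome carries several near-identical Ccl27 copies, and rows for 3 further copies had per-library counts of 0.667 to 0.952 times those of Ccl27b. Ccl27a followed Ccl27b less closely, with 0.282 to 0.968 times its counts. The split of reads between copies is uncertain, and how many reads Ccl27a and Ccl27b share is not known. Ccl27a also overlaps Il11ra1 on the other strand. Ccl21a, the lymphatic-vessel ligand of CCR7, has such copies too: 3 other rows, 2 of them on chromosome 4, held identical counts in all 9 libraries, 59 in each. These were 9, 4 and 6 in Mdl-1-/- IL-23, 0, 0 and 1 in WT IL-23 and 12, 17 and 10 in WT GFP libraries. In these 3 rows, unlike Ccl21a itself, WT IL-23 lay below both other groups in every library. Ccl21a had 2.91, 1.37 and 3.11 CPM in Mdl-1-/- IL-23 ears, 1.38, 1.09 and 1.32 CPM in WT IL-23 ears and 2.96, 5.69 and 1.70 CPM in WT GFP ears. WT IL-23 lay below WT GFP in every library and overlapped Mdl-1-/- IL-23. Ccl21a was 2.68-fold lower in WT IL-23 than in WT GFP (edgeR adjusted p = 0.0403), a call lost in 7 of 17 alternatives with adjusted p up to 0.217.

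Cx3cl1 (fractalkine), a membrane-anchored ligand on epithelium and endothelium, had 7.60, 3.20 and 3.59 CPM in Mdl-1-/- IL-23 ears, 2.52, 1.53 and 1.65 CPM in WT IL-23 ears and 6.44, 6.43 and 7.58 CPM in WT GFP ears. WT IL-23 lay below both other groups. It was 2.49-fold higher in Mdl-1-/- than in WT under IL-23 (log2 1.32 ± 0.42, edgeR adjusted p = 0.0405) and 3.52-fold lower in WT IL-23 than in WT GFP (edgeR adjusted p = 0.00169). The genotype call was lost in 6 of 18 alternatives; without Mdl-1-/- IL-23 library 1 the log2 difference was 0.82 with adjusted p = 0.235.

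Ccl20, the CCR6 ligand of inflamed epidermis, had 6.26, 8.01 and 9.34 CPM in Mdl-1-/- IL-23 ears, 2.75, 1.09 and 1.98 CPM in WT IL-23 ears and 5.39, 0 and 0.928 CPM in WT GFP ears. Mdl-1-/- IL-23 lay above every other library. The difference between genotypes was 2.01 ± 0.84 log2 units and missed the threshold (edgeR adjusted p = 0.127). It passed in 4 of 17 alternatives. Without WT GFP library 1, whose spread enters the shared error, adjusted p was 0.0114, and without WT GFP library 2 it was 0.0173. With the 2 groups fitted alone the difference was 2.04 with adjusted p = 0.00315, and with no count filter 2.02 with adjusted p = 0.000551. IL-23 against GFP in WT gave -0.12 ± 0.93 (edgeR adjusted p = 0.927) and took the other sign, 1.91 with adjusted p = 0.0589, without WT GFP library 1, which held 31 of the 37 WT GFP counts. Mdl-1-/- IL-23 against WT GFP gave 1.89 ± 0.78 (edgeR adjusted p = 0.128), and 3.94 with adjusted p = 0.00107 without that library. Ccl25, the CCR9 ligand, averaged 5.79 ± 2.02 CPM in Mdl-1-/- IL-23, 6.81 ± 2.19 in WT IL-23 and 7.70 ± 1.13 in WT GFP ears and did not pass the test.

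Of 3 tested atypical receptor genes, 2 fell with IL-23 in WT and 0 passed the test between genotypes. Ackr4, a scavenger of CCL19, CCL21 and CCL25, had 117, 51.7 and 75.5 CPM in Mdl-1-/- IL-23 ears, 44.0, 37.4 and 14.9 CPM in WT IL-23 ears and 123, 114 and 159 CPM in WT GFP ears. WT IL-23 lay below both other groups, and Mdl-1-/- IL-23 library 1 reached into the WT GFP range. It was 4.04-fold lower in WT IL-23 than in WT GFP (log2 -2.02 ± 0.41, edgeR adjusted p = 0.00479), and 1.32 ± 0.41 log2 units higher in Mdl-1-/- than in WT under IL-23 without passing the test (edgeR adjusted p = 0.0601). Exons of Acad11 on the other strand overlap Ackr4, so its reads are uncertain. The same holds for Cxcl10 (Art3), Ccl25 (Elavl1) and Cxcr5 (Bcl9l), for Ackr1 with Cadm3 on the same strand, and over a few bases for Cxcl16 (Zmynd15) and Cx3cr1 (Gm33858).

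Ackr2, a scavenger of inflammatory CC ligands, had 0.895, 0.915 and 2.16 CPM in Mdl-1-/- IL-23 ears, 0.688, 0.438 and 0.331 CPM in WT IL-23 ears and 2.09, 3.31 and 3.87 CPM in WT GFP ears. WT IL-23 lay below both other groups, which overlapped. It was 5.94-fold lower in WT IL-23 than in WT GFP (log2 -2.57 ± 0.59, edgeR adjusted p = 0.00231), and the genotypes under IL-23 differed by 1.35 ± 0.68 log2 units (edgeR adjusted p = 0.181). Ackr3, the scavenger of CXCL12, averaged 37.1 ± 4.0 CPM in Mdl-1-/- IL-23, 36.9 ± 5.8 in WT IL-23 and 34.2 ± 9.2 in WT GFP ears, with overlap among all groups and no call. Of 9 tested keratinocyte markers, 5 rose and 2 fell with IL-23 in WT, and under IL-23 2 were higher and 3 lower in Mdl-1-/- than in WT. Of 4 tested lymphatic markers 1 rose and 1 fell with IL-23 in WT. The 1 that rose was lower in Mdl-1-/- than in WT under IL-23. Of 4 tested blood endothelium markers 0 rose and 1 fell with IL-23 in WT, and 0 passed the test between genotypes. Of 5 tested mast cell markers 1 (Hdc) rose and 3 (Cpa3, Cma1 and Mcpt4) fell with IL-23 in WT, and under IL-23 these 3 were higher and Hdc lower in Mdl-1-/- than in WT. Of 7 tested fibroblast markers 2 (Pdgfra and Dcn) fell with IL-23 in WT and 0 passed the test between genotypes. The part of these cell types in the levels of homeostatic and scavenger genes was not tested.

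**Figure D4:**
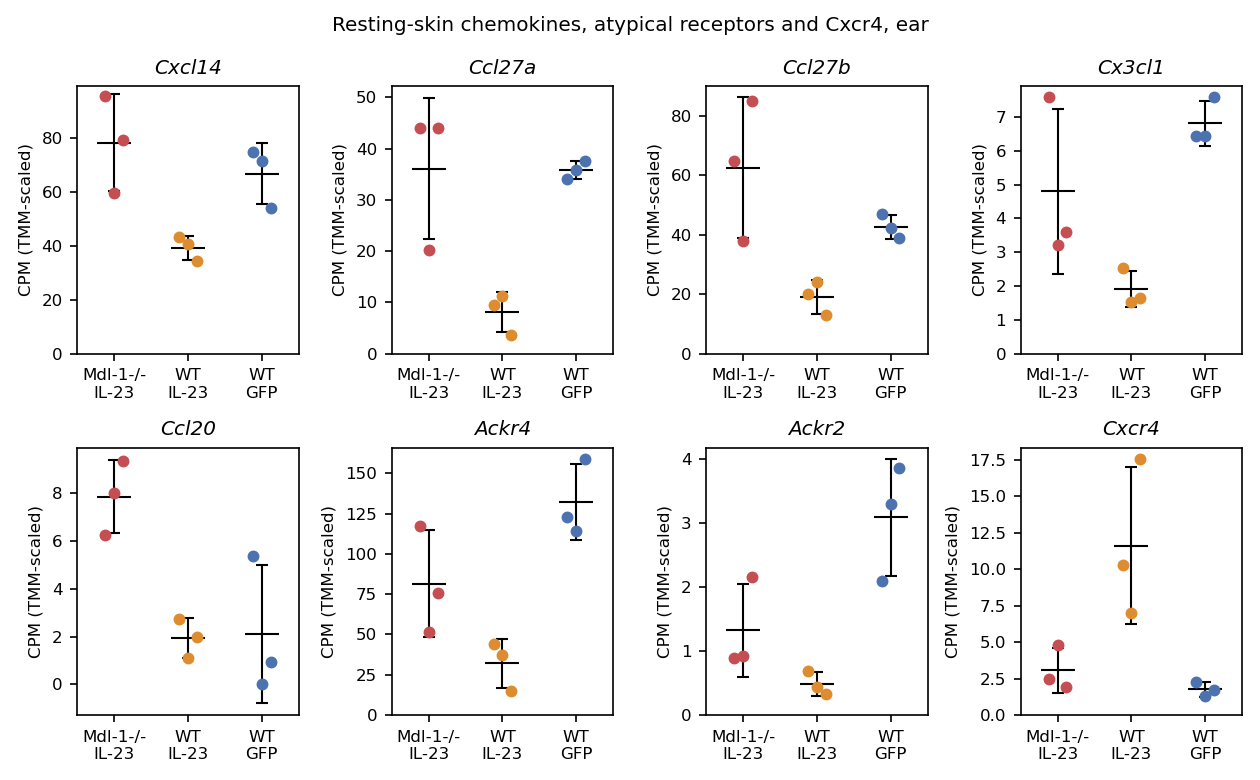
Levels of homeostatic and scavenger chemokine genes, with Ccl20 and Cxcr4, in ear, in CPM, 1 point a library, with the group mean as a horizontal line and the SD as error bars (n = 3 a group); groups run Mdl-1-/- IL-23, WT IL-23, WT GFP. Cxcl14, Ccl27a, Ccl27b and Cx3cl1 are lowest in WT IL-23 ears, and Ccl20 is highest in Mdl-1-/- IL-23 ears.

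The remaining genes too low to test were given by their summed counts. Ccr7, which guides dendritic cells and T cells to lymph nodes, had 16 counts in Mdl-1-/- IL-23, 13 in WT IL-23 and 4 in WT GFP libraries. Its ligand gene Ccl19, which has a second entry on an unplaced scaffold with counts of its own, had 6 in Mdl-1-/- IL-23, 8 in WT IL-23 and 15 in WT GFP libraries. The CCR4 ligand gene Ccl17 had 16 in Mdl-1-/- IL-23, 15 in WT IL-23 and 7 in WT GFP libraries, and Ccl22, the other CCR4 ligand gene, had 9 in Mdl-1-/- IL-23, 8 in WT IL-23 and 6 in WT GFP libraries. Every group of these 4 genes held a library with 5 or fewer. Mucosal Ccl28 had 8 in Mdl-1-/- IL-23, 6 in WT IL-23 and 17 in WT GFP libraries. The atypical receptor gene Ackr1, of venules and red cells, had 11 in Mdl-1-/- IL-23, 7 in WT IL-23 and 23 in WT GFP libraries, and Cxcr5, of B cells and follicular T cells, had 3 in Mdl-1-/- IL-23, 5 in WT IL-23 and 2 in WT GFP libraries.

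Genes that act with chemokines were read from lists chosen by function, and the same lists were used for all comparisons. Of 39 chemokine signalling genes 35 were tested; with IL-23 in WT, 13 rose (37.1%, against 22.9% of all genes) and 3 fell (8.57%, against 21.7%), with a median log2 fold change of 0.42. Among those with large changes were Vav1 (4.62-fold higher), a Rac activator, and Rgs1 (3.85-fold higher), a damper of G protein signals, and, in the other direction, Grk5 (log2 -1.27), Rgs3 (-1.12) and Gnai1 (-0.65). Between genotypes under IL-23, 2 were higher in Mdl-1-/-, Rgs3 (log2 1.06) and Gnai1 (0.59), and 5 were lower, among them Vav1 (-1.44) and Grk6 (-0.89), with a median of -0.20. These shares of 5.71% and 14.3% lay near the 7.58% and 10.1% of all genes.

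Other chemoattractant systems gave 12 tested genes of 18. With IL-23 in WT, 5 rose, led by Ptafr (7.31-fold), the platelet-activating factor receptor gene, Fpr2 (5.90-fold), a formyl peptide receptor gene, and Ccrl2 (4.46-fold), a chemerin-binding receptor gene, and 2 fell, Cysltr1 (log2 -1.45) and S1pr1 (-1.23). Under IL-23, Ptafr (log2 -2.31), the leukotriene B4 receptor gene Ltb4r1 (-0.92) and Mif (-0.61) were lower and Cysltr1 (0.92) higher in Mdl-1-/- than in WT ears. Their median log2 difference was 0.39 with IL-23 in WT and -0.21 between genotypes.

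Of 22 listed upstream signals, cytokines and transcription factors known to induce chemokine genes, 15 were tested. With IL-23 in WT, 12 rose (80%, against 22.9% of all genes) and 0 fell (against 21.7%), with a median log2 of 0.99. Between genotypes under IL-23, 0 were higher (against 7.58%) and 1, the IL-17 receptor gene Il17ra, was lower in Mdl-1-/- (6.67%, against 10.1%). Its log2 difference was -0.77 ± 0.20 (edgeR adjusted p = 0.0176). Il1b, which induces neutrophil chemokines, had 134, 112 and 14.6 CPM in Mdl-1-/- IL-23 ears, 429, 553 and 617 CPM in WT IL-23 ears and 3.65, 47.6 and 72.1 CPM in WT GFP ears. All WT IL-23 libraries were above all others, as for Cxcl2, and the genotype difference of -2.62 ± 1.06 log2 units did not pass the test (edgeR adjusted p = 0.145). Tnf was 5.95-fold higher in WT IL-23 than in WT GFP (edgeR adjusted p = 0.000302), and Il22 had 0.671, 4.12 and 3.35 CPM in Mdl-1-/- IL-23 ears, 6.42, 3.72 and 11.6 CPM in WT IL-23 ears and 0 in each WT GFP library.

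**Figure D5:**
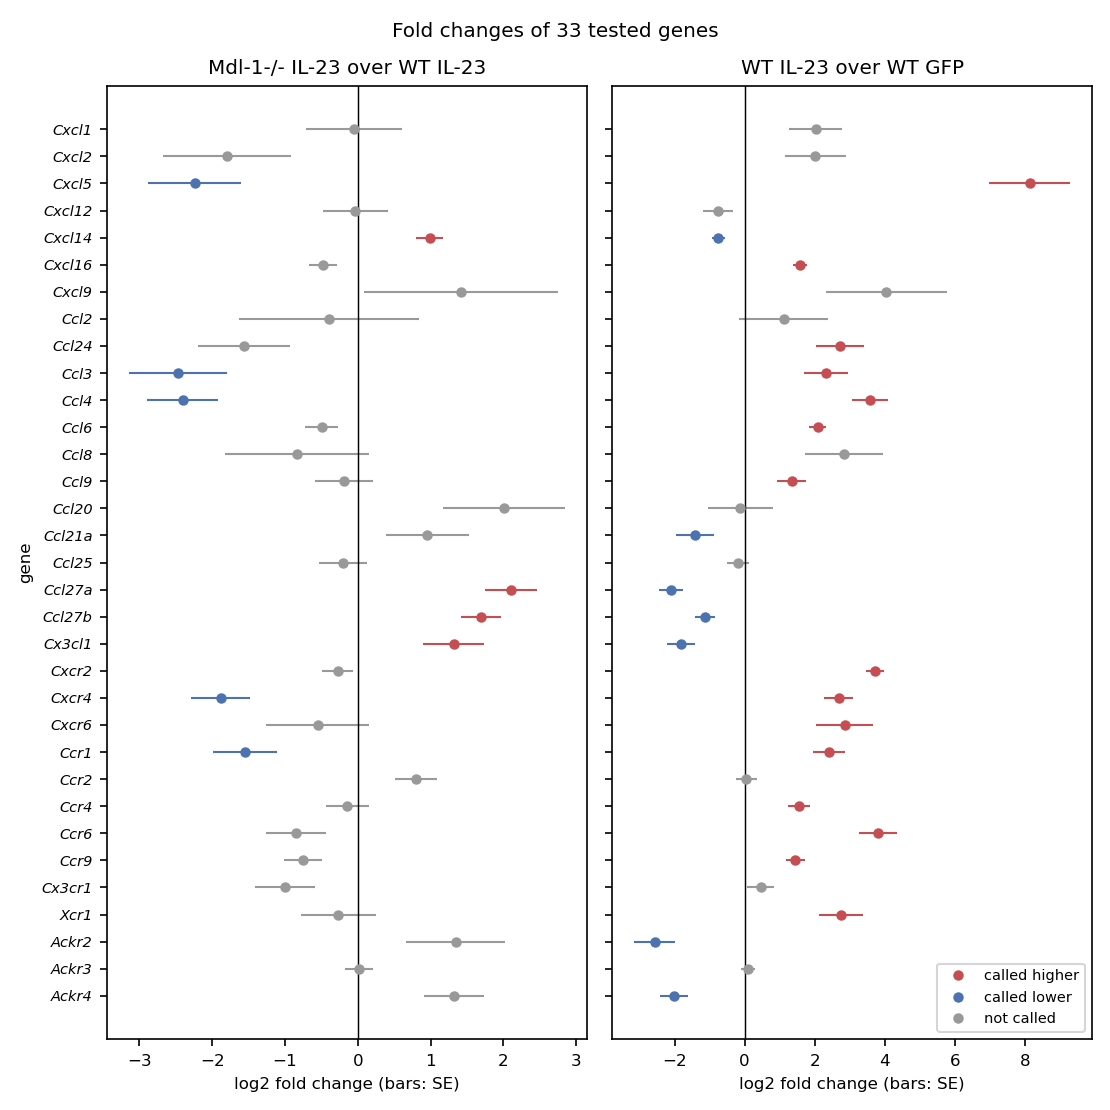
Log2 fold change of 33 tested chemokine and receptor genes (points) with its standard error (bars) for Mdl-1-/- IL-23 against WT IL-23 on the left and WT IL-23 against WT GFP on the right; red (higher) and blue (lower) points passed the test and grey points did not. On the left 4 points are red and 5 blue, and on the right 15 are red and 7 blue.

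In the authors' deposited table of its own edgeR comparisons, 21 of the set were higher and 6 lower in WT IL-23 than in WT GFP at a false discovery rate under 0.05, and 22 of the 23 genes called here were among them. Cxcl1, Cxcl2, Cxcl9 and Ccl8, which missed the threshold here, and untested Cxcl10 were called only by the authors, and Ccl21a only here. For Mdl-1-/- against WT under IL-23, the authors' deposited table called 5 higher and 6 lower after its sign, which is that of WT over mutant, was turned to match, with 8 of the 9 genes shared. There the authors alone called Ccl20 and Ackr4 higher and Cxcl2 lower in Mdl-1-/-, all of which missed the threshold here. Cx3cl1 was called only here. For Mdl-1-/- IL-23 against WT GFP, the authors' deposited table called 12 higher and 0 lower, with 7 of the 8 shared. Cxcl9, Ccl8, Ccr2, Cxcr6 and untested Cxcl10 were called only by the authors in this comparison.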

How the data were processed

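RNA of 9 ear libraries (3 groups of 3, grouped by the labels) was read by 3' tag RNA-Seq. The authors' deposited tables hold raw counts per Ensembl gene, made with STAR 2.7.0a and featureCounts per the submitters' processing notes. Those notes name the build GRCh38.p6, a human name, while the identifiers are those of mouse, so the build used for alignment is uncertain; the handling of strand and multiple matches is not stated. The deposited edgeR tables give log2 fold changes, mean log2 CPM and p-values made by the authors. Their false discovery rates were used only to count calls and to name those that differ.

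The count tables were joined (0 values differed between repeated columns of the 9 libraries). Symbols and positions came from GENCODE M21 (GRCm38) by identifier; 115 identifiers had none. The set was found by its name rule, and every one of its tested genes is named except 1, which, with some genes of the other lists, is not reported here. Lists and roles, like the set itself, were chosen with earlier results of these data known. The deposited counts entered edgeR 4.0.16 (R 4.3.3) with a filter at a minimum count of 10, TMM scaling, 1 robust quasi-likelihood fit over all libraries with 6 residual degrees of freedom, and Benjamini-Hochberg adjustment over 13807 genes, called under 0.05. No covariate entered. The procedure was tested on simulated data with 200 changed genes. Exact intervals at the 95% level cover counting error only. Alternatives were other scalings and filters, DESeq2 1.42.0, limma 3.58.1 voom, non-robust dispersions, the compared groups alone, a replicate block, and each library left out. Replicates differed by more than sampling noise.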

Additional observations from a re-analysis of the deposited data

How the results depend on the processing

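Upper-quartile scaling, DESeq2 size factors, DESeq2, limma voom, non-robust dispersions, and a fit of the compared groups alone left each count of chemokine and receptor genes called within 1.5 times the one reported, and 0 of the differences that passed the test changed direction under any alternative. The count filter changed these numbers more. With a minimum count of 30, 10 in place of 16 genes of the set were higher in WT IL-23 than in WT GFP, 3 in place of 5 were lower in Mdl-1-/- than in WT under IL-23, and 5 in place of 8 were higher in Mdl-1-/- IL-23 than in WT GFP. At that minimum, genes such as Cxcr4, Ccl3, Ccl9, Ccl24, Ccr6 and Xcr1 were no longer tested. No gene of the set that was still tested lost its call there. With no filter, 15 were higher and 1 lower in the last comparison. Leaving out each library in turn gave 13 to 17 higher and 6 to 8 lower genes of the set for WT IL-23 against WT GFP, 3 to 5 higher and 2 to 6 lower for Mdl-1-/- against WT under IL-23, and 6 to 10 higher and 0 to 1 lower for Mdl-1-/- IL-23 against WT GFP. Over all genes the calls ranged from 4592 to 6240 in the first of these comparisons, against 6169 with all libraries. In the genotype comparison they ranged from 1116 to 2806, against 2439, and fell by over 1.5 times without WT IL-23 library 2 (1116) or 3 (1295) or Mdl-1-/- IL-23 library 1 (1165) or 3 (1353). For Mdl-1-/- IL-23 against WT GFP they ranged from 1328 to 2564, against 2359, with the low values without WT GFP library 3 (1328) and Mdl-1-/- IL-23 library 2 (1354). Lower genes of the set in the genotype comparison numbered 5 with all libraries, 3 without WT IL-23 library 2 or Mdl-1-/- IL-23 library 2, and 2 without WT IL-23 library 3 or Mdl-1-/- IL-23 library 1 or 3. Of the values of single genes under an alternative, 1589 kept their direction and side of the threshold, 69 moved past it, 46 no longer passed and 45 took the other sign, all of these for 15 differences that passed the test neither as reported nor with the other sign; the cause was not tested. For WT IL-23 against WT GFP these were, in log2 units over the left-out libraries, Ccl20 (-0.66 to 1.91), Ccr2 (-0.31 to 0.36) and Ackr3 (-0.012 to 0.35). For Mdl-1-/- against WT under IL-23 they were Cxcl1 (-0.37 to 0.24), Cxcl12 (-0.72 to 0.35), Ccl2 (-0.99 to 0.64), Ccl9 (-0.43 to 0.19), Ccl25 (-0.44 to 0.056), Ccr4 (-0.39 to 0.25), Xcr1 (-0.50 to 0.053) and Ackr3 (-0.10 to 0.13). For Mdl-1-/- IL-23 against WT GFP they were Cxcl2 (-0.24 to 1.51), Ccl3 (-0.70 to 0.43), Ccl21a (-0.79 to 0.11) and Ccl27a (-0.16 to 0.31). Upper-quartile scaling also turned Ackr3 (-0.053) and Ccr2 (-0.11) in the first comparison, Cxcl1 (0.0047) and Cxcl12 (0.026) in the second and Ccl27a (-0.084) in the third. The minimum count of 30 turned Ccr2 (-0.0087) and Ccl27a (-0.025), the replicate block Ccl20 (0.032), Cxcl1 (0.049) and Ccl27a (-0.018), and limma voom Ccl20 (1.21), Ccr2 (-0.075), Ccl3 (0.81) and Ccl27a (-0.078), in the same comparisons. Whether the replicate numbers of the labels pair the libraries was not settled. Correlations of same-numbered libraries' deviations from their group means ran from -0.10 to 0.26. For libraries with different numbers they ran from -0.24 to 0.19. With 3 libraries a group, these values cannot decide it. With a replicate block, 6257, 2800 and 2682 genes were called in the 3 comparisons, in the same order. Genes under about 10 counts a library lie near the floor of 0.464 to 0.992 CPM, where these depths resolve only large differences.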
